A study of Sus scrofa with 27 samples.

Results

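The genes described here carry WNT and R-spondin signals from the cell surface to the nucleus. They are 10 genes chosen by name: the co-receptor LRP6, the Frizzled receptors FZD1 and FZD4, the R-spondin receptors LGR4 and LGR5, the ubiquitin ligase ZNRF3, β-catenin (CTNNB1), its DNA-binding partners TCF7L2 and LEF1, and AXIN2. All 10 had a pig identifier among the 35670 identifiers counted in every library, and 9 of them reached the mean count of 5 that was required for testing, among 11384 named genes tested in all. LGR5 did not reach it.

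WNT proteins are secreted ligands that bind a Frizzled receptor together with LRP5 or LRP6. Binding stops a cytoplasmic destruction complex from degrading β-catenin, which then enters the nucleus and acts with TCF and LEF factors on target genes, among them AXIN2, itself a scaffold of the destruction complex, and LEF1. ZNRF3 and RNF43 remove Frizzled receptors from the cell surface, and R-spondins bound to LGR4, LGR5 or LGR6 hold these ligases back. In the ovary the pathway is known for its part in ovarian determination, and in granulosa cells β-catenin is known to take part in the response to FSH.

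Mural granulosa cells, which line the wall of the follicle, were cut by laser capture microdissection from 1 follicle per sow and sequenced as 1 library per sow. The full-fed (FF) group held 13 sows given 6.5 kg of feed per day and the feed-restricted (RES) group held 14 sows given 3.25 kg per day, in both cases over the 2 weeks before weaning. The paper had selected these sows from larger groups, for the highest body weight loss in RES and the lowest in FF. The differences below are thus between selected sows. All sows were wild-type first-litter Large White and Norwegian Landrace crosses, both groups were fed alike from weaning, and ovaries were collected on day 2 after weaning. That follicle was the largest one judged healthy on the right ovary, so each library stands for 1 follicle of 1 animal. The paper reports that this follicle was on average smaller in RES than in FF sows. Diet and follicle size therefore cannot be told apart in these libraries.

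Libraries held 12299220 to 16021200 counts in the FF group and 12942198 to 18120922 in the RES group. The 10 granulosa markers with an identifier were all tested, with mean counts from 6.81 for AMH to 55006 for VCAN, and FSHR, the FSH receptor, had a mean of 712 counts. Endothelial, theca, stromal and immune markers were also counted, so the levels given are those of the captured tissue. In such libraries fewer cells of a type and less RNA per cell cannot be told apart. For this report the libraries were divided at a gap in Q20, a base quality measure in the study's read statistics. This gave an upper read quality group (7 FF and 7 RES) and a lower one (6 FF and 7 RES). FF sow 10 stood apart for these genes. Among the 13 FF libraries it had the lowest normalized count of CTNNB1, FZD4, LRP6 and LGR4 and the highest of AXIN2, and the quality record that belongs to it is uncertain in the sources. Among the 14 RES libraries, RES sow 7 had the highest normalized count of LRP6, LEF1 and ZNRF3, but not of FZD4 or LGR4. It was also the highest for markers of other cell types, among them EMCN, CYP17A1 and COL3A1. Without RES sow 7, 2350 genes were called in all, against 1610 with every library.

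FZD4 and LRP6, which together belong to the WNT receptor complex, were lower in the RES group, and no tested member was called higher. Thus 2 of 9 tested members were called at an adjusted p under 0.05, against 14.1% of all genes tested in either direction, 5.85% called lower in RES and 8.29% called higher. Of the 9 log2 fold changes 8 were negative (7 with libraries scaled over all identifiers, where CTNNB1 was at 0.04), with a median of -0.20 beside -0.02 over all genes.

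**Figure D1:**
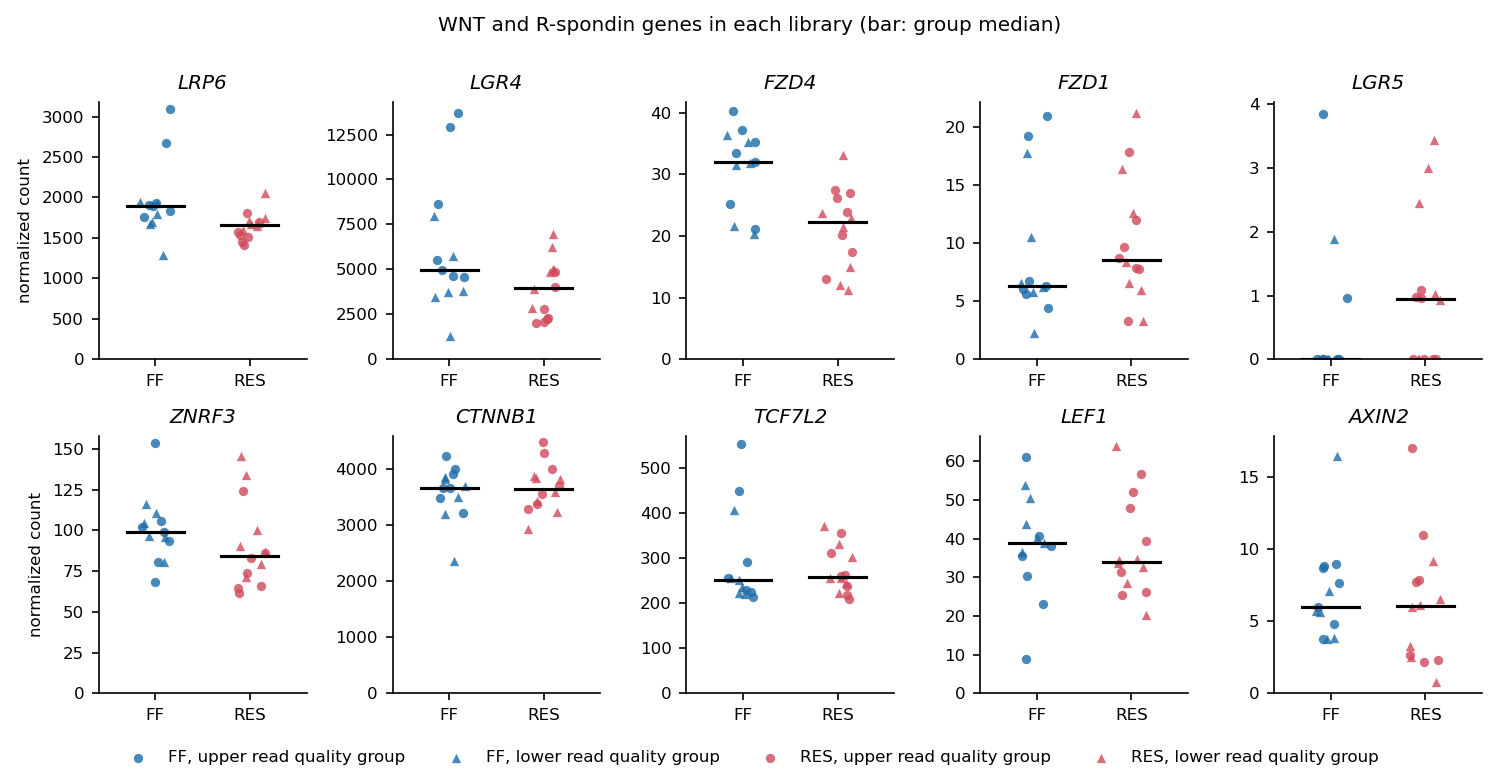
Normalized count (y axis, counts divided by the library's size factor) of each of the 10 genes in 13 FF and 14 RES libraries; each point is 1 sow, circles and triangles mark the upper and lower read quality group, and the bar is the group median. FZD4 has its median at 32.1 in FF and 22.2 in RES, whereas the medians of AXIN2 lie at 6.02 and 6.06.

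At the ligand end, most of the WNT and R-spondin genes measured had few counts. WNT4, a main WNT of the ovary, was not analysed here. Of the 18 WNT genes with an identifier, 5 reached a mean count of 5 and 2 had no count in any library. WNT2B was the most abundant of these 18, at a median of 157 normalized counts in FF (115 to 179) and 118 in RES (89.3 to 205). It was lower in the RES group (log2 fold change -0.38 ± 0.12 SE, adjusted p = 0.0309, edgeR), with 13 of 14 RES libraries below the FF median although the ranges overlapped. The call was lost in 7 of 27 fits that left out 1 library (adjusted p up to 0.0562, edgeR). WNT5A, a ligand best known for β-catenin-independent signalling, had a log2 fold change of -0.34 ± 0.35 (adjusted p = 0.543, edgeR). The other 3 tested ligands, WNT2, WNT9A and WNT9B, had mean counts from 5.41 to 8.56 and none was called.

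RSPO2 was the only R-spondin above the minimum. Its normalized count ran from 0.96 to 71.2 in FF with a median of 11.4, and from 0 to 49.9 in RES with a median of 3.5. The log2 fold change was -1.50 ± 0.59 (adjusted p = 0.0821, edgeR) and ran from -2.46 to -1.12 when single libraries were left out. It passed without RES sow 7, the RES library with the highest RSPO2 count (-2.46, adjusted p = 0.00134, edgeR), and in 3 other settings. RSPO3 had a mean of 2.89 counts and RSPO4 had none in the 27 libraries, where a total of 0 allows up to 3 counts. WLS and PORCN, which WNT-producing cells need for secretion, had log2 fold changes of 0.05 and -0.08 and neither was called.

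LRP6 (chr5:60149041-60318719, plus strand, Sscrofa11.1), the co-receptor that is phosphorylated when WNT binds, was abundant and lower in the RES group. FF libraries ran from 1283 to 3095 normalized counts with a median of 1895, and RES libraries from 1408 to 2060 with a median of 1659. The ranges overlapped, but 13 of 14 RES libraries lay below the FF median and 12 of 13 FF libraries above the RES median. The difference was -0.29 ± 0.09 on the log2 scale (adjusted p = 0.0403, edgeR), and 615 of the 666 genes called lower had a larger fall. This call rested on a narrow margin: it was lost in 13 of 27 fits that left out 1 library, with log2 fold changes from -0.32 without FF sow 10 to -0.21 without FF sow 6. LRP5, its close relative, had 27.5 counts on average and a log2 fold change of -0.19 ± 0.18 (adjusted p = 0.506, edgeR).

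FZD4 (chr9:20714995-20721460, minus strand), a Frizzled that also binds the non-WNT ligand Norrin in blood vessels, was scarce and lower in the RES group. Its normalized count ran from 20.3 to 40.4 in FF around a median of 32.1, and from 11.2 to 33.1 in RES around a median of 22.2. Here 6 RES libraries lay below every FF library and 6 FF libraries lay above every RES library. The log2 fold change was -0.59 ± 0.16 (adjusted p = 0.0152, edgeR) and stayed called without each library in turn (adjusted p 0.00642 to 0.0293). Of 8 endothelial markers tested, 4 were called lower in RES (CDH5, EMCN, CLDN5 and ESAM, log2 fold changes from -0.80 to -0.56). A negative sign was seen for 7, TIE1 at 0.40 being the exception. The summed normalized count of the 9 endothelial markers with an identifier ran from 1197 to 2409 in FF and from 839 to 2366 in RES, with medians of 1664 and 1188, and each marker was counted in some library, with EGFL7 at 0 in 4 of 27. Their part in the FZD4 result was not tested.

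Theca, stromal, immune and erythroid markers showed mostly negative signs as well. Beside the 5.85% of all genes called lower, for theca 1 of 7 tested markers was called lower, for stroma and smooth muscle 1 of 11, for immune cells 0 of 5 and for erythroid cells 1 of 2. Of 6 oocyte markers only GDF9 reached the minimum, and it was not called. The summed theca list ran from 8480 to 40945 normalized counts in FF and from 2657 to 34925 in RES, with medians of 17018 and 11674. LHCGR, which granulosa cells of large follicles also express, made up 72.9% of that sum, and the other 6 theca markers summed to 2392 to 13630 in FF and 1108 to 12599 in RES, around medians of 3795 and 2802. The stromal list ran from 13866 to 43499 and from 11332 to 39513 (medians 24854 and 22299), the immune list from 88.6 to 437 and from 50.8 to 350 (medians 171 and 124), and the erythroid list from 35.5 to 1045 and from 9.63 to 148 (medians 92.2 and 25.5). Their part in the differences of LRP6, FZD4 and LGR4 was not tested. In the granulosa list 1 of 10 markers was called, HSD17B1, which was higher in RES at 0.56, and the summed list had medians of 96248 and 108048. CYP19A1 and FOXL2, also planned for that list, had no identifier in the naming table and were not analysed. The paper reports CYP19A1 as lower in RES.

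FZD1 was at the edge of detection. It had 2 to 25 counts per library, and normalized counts of 2.25 to 20.96 in FF and 3.26 to 21.2 in RES, with medians of 6.31 and 8.54, so that the groups overlapped almost completely. RES against FF gave a log2 fold change of 0.11 with a 95% interval from -0.53 to 0.76 (adjusted p = 0.846, edgeR).

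Neither FZD1 nor FZD4 carried much of the Frizzled RNA. Per kilobase of exon, FZD5 made up 82.7 ± 8.12% (SD, n = 13) of the summed level of 10 Frizzled genes in FF and 89.4 ± 5.07% (SD, n = 14) in RES, followed by FZD6 at 14.6% and 8.71%. FZD4 made up 0.556 ± 0.245% in FF and 0.264 ± 0.162% in RES, and FZD1 0.0720% and 0.0640%. FZD5 ran from 2605 to 13686 normalized counts in FF and from 3188 to 19574 in RES, with medians of 7541 and 11507. With 13 of 14 RES libraries above the FF median, its log2 fold change was 0.57 ± 0.22 (adjusted p = 0.0752, edgeR), which did not pass the threshold. It passed in 4 other settings, 2 of them without a single library (RES sow 4, adjusted p = 0.0248, and FF sow 7, 0.0369, edgeR). RYK, an atypical WNT receptor and the most abundant receptor of the list per kilobase, had a log2 fold change of 0.07 (adjusted p = 0.788, edgeR), and none of the 9 tested receptors of that list was called.

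**Figure D2:**
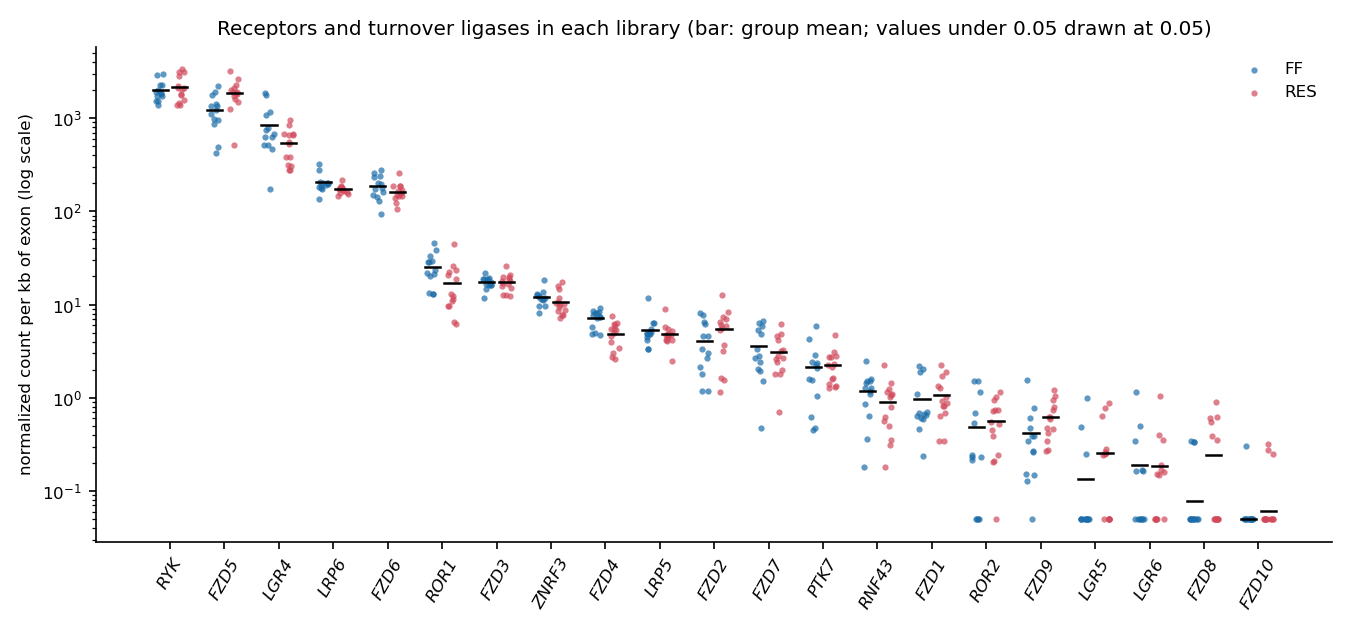
Normalized count per kilobase of RefSeq exon (y axis, log scale) of WNT and R-spondin receptors and the ligases ZNRF3 and RNF43; each point is 1 library, FF in blue and RES in red, and bars are group means. FZD5 averages 1227 in FF and 1870 in RES, while FZD4 averages 7.103 and 4.83.

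LGR4 (chr2:32871837-32979150), a receptor for R-spondins, was the only abundant member of its family, with LGR5 and LGR6 each under 0.2 normalized counts per kilobase on average. Its normalized count ran from 1280 to 13712 in FF with a median of 4944 and from 2028 to 6992 in RES with a median of 3979. FF sows 14 and 6 were the highest of all, and 4 FF libraries lay above every RES library. The log2 fold change of -0.70 ± 0.27 did not pass the threshold (adjusted p = 0.0768, edgeR), but did so without FF sow 10 (-0.79, adjusted p = 0.0248) and with DESeq2 (-0.70, adjusted p = 0.0438).

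The LGR4 values of the read quality groups are given apart, because the estimates differed widely. Among the 14 libraries of the upper group, FF ran from 4586 to 13712 and RES from 2028 to 4857, with medians of 5545 and 2307, and 6 of 7 RES libraries lay below every FF library. There the fold change was -1.47 on the log2 scale, with an SE of 0.31 (adjusted p = 0.00975, edgeR). In the 13 libraries of the lower group, FF ran from 1280 to 7984 and RES from 2832 to 6992, the medians were 3770 and 4954, and the log2 fold change was 0.17 ± 0.30 (adjusted p = 0.881, edgeR). These values depend on the uncertain record of FF sow 10. In settings chosen after seeing the data, the lower group gave -0.03 without it, and the upper group gave -1.31 ± 0.38 (adjusted p = 0.042, edgeR) with it moved there, where its 1280 normalized counts lay below every RES library. The diet by quality group interaction of LGR4 was -1.63 ± 0.46 on the log2 scale (p = 0.00148, adjusted p = 0.182 over all genes, edgeR) and -1.44 without FF sow 10 (adjusted p = 0.386) or -1.29 with it moved (adjusted p = 0.993), so that a different size of effect was not called.

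For LRP6 the larger estimate was also that of the upper group, whereas the estimates for FZD4 were alike. LRP6 had a log2 fold change of -0.50 ± 0.13 in the upper group (adjusted p = 0.0197, edgeR) and -0.04 ± 0.12 in the lower group, with an interaction of -0.46 (p = 0.0124, adjusted p = 0.311, edgeR). With FF sow 10 moved into the upper group LRP6 had -0.43 there (adjusted p = 0.075, edgeR). FZD4 had -0.57 ± 0.20 in the upper group and -0.60 ± 0.27 in the lower group, and neither passed the threshold alone (adjusted p = 0.0636 and 0.388, edgeR). Its interaction was 0.03 ± 0.33 (adjusted p = 0.976, edgeR).

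**Figure D3:**
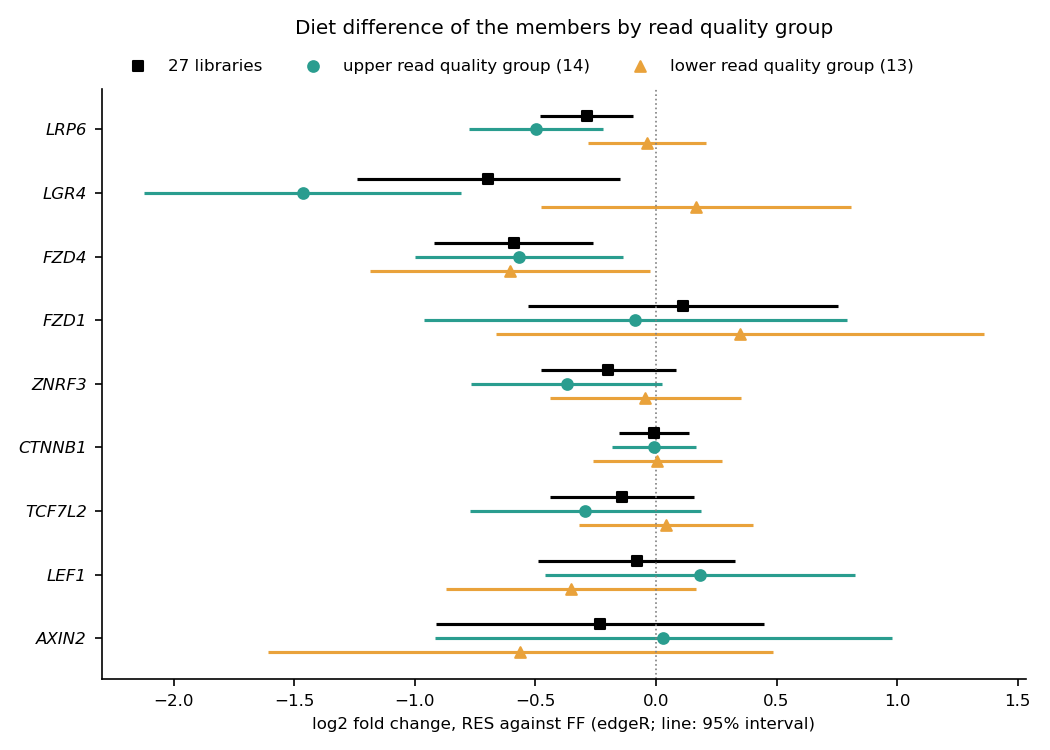
Log2 fold change of RES against FF (x axis) for the 9 tested members over all 27 libraries and within each read quality group, with 95% intervals from edgeR. LGR4 sits at -1.47 in the upper and 0.17 in the lower group, whereas FZD4 sits at -0.57 and -0.60.

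LGR5, the stem cell marker of the same receptor family, was nearly absent. It had 7 counts in all over the FF libraries (exact Poisson 95% interval 2.81 to 14.4), with 10 of 13 at 0, and 14 counts over the RES libraries (7.65 to 23.5), with 6 of 14 at 0. The intervals cover counting error only and overlap, and no difference was detectable at this depth. The highest library held 4 counts.

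ZNRF3, the ligase that R-spondin and LGR4 hold back, had 68.2 to 153 normalized counts in FF and 61.3 to 146 in RES, with medians of 98.99 and 84.5. The groups overlapped over most of their range, with 10 of 14 RES libraries below the FF median. RES against FF gave -0.20 ± 0.14 on the log2 scale (95% interval -0.48 to 0.08, adjusted p = 0.342, edgeR). RNF43, which acts in the same way, had 5.52 counts on average and a log2 fold change of -0.43 ± 0.32 (adjusted p = 0.394, edgeR).

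Secreted and surface inhibitors were measured as a list of 18 genes. Of 10 tested, FRZB and DKK3 were called lower in RES and none higher, and the median log2 fold change was -0.33. FRZB, a decoy that binds WNT, had medians of 242 normalized counts in FF and 171 in RES (log2 fold change -0.66 ± 0.21, adjusted p = 0.031, edgeR). DKK3, a secreted member of the Dickkopf family, had medians of 1049 and 664 (-0.57 ± 0.19, adjusted p = 0.0373). For both, 13 of 14 RES libraries lay below the FF median and the ranges overlapped. The call was lost for FRZB in 6 and for DKK3 in 13 of 27 fits that left out 1 library.

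β-catenin RNA was even across the libraries. CTNNB1 ran from 2369 to 4232 normalized counts in FF and from 2934 to 4495 in RES, with medians of 3677 and 3645, with coefficients of variation of 13.1% and 11.5%. RES against FF was at -0.01 on the log2 scale, with a 95% interval from -0.15 to 0.14 (adjusted p = 0.956, edgeR). RNA says nothing of the protein, whose stability is what the pathway controls. Among the destruction complex and Dishevelled genes 1 of 15 tested was called: DVL1, 1 of the 3 Dishevelled genes that relay the receptor signal, was at -0.57 ± 0.18 (adjusted p = 0.0299, edgeR), and the median of that list was -0.04. The DVL1 call was lost in 4 of 27 fits that left out 1 library (adjusted p up to 0.0532, edgeR), and the value was -0.42 without FF sow 10, its highest library. APC and GSK3B, core parts of the complex, had log2 fold changes of -0.05 and -0.06.

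TCF7L2, the most abundant TCF factor among the members, had 213 to 553 normalized counts in FF and 208 to 370 in RES, around medians of 251 and 259. Its log2 fold change was -0.14 ± 0.15 (adjusted p = 0.552, edgeR), and 3 FF libraries lay above every RES library. Among the 11 nuclear partners tested, BCL9, which links β-catenin to its co-activators, was higher in RES (0.61 ± 0.16, adjusted p = 0.00996, edgeR), with 13 of 14 RES libraries above the FF median. TLE1, a co-repressor of TCF factors, was lower (-0.49 ± 0.15, adjusted p = 0.0236), and TLE4 of the same family had -0.55 ± 0.20 (adjusted p = 0.0559, edgeR), which passed in 11 other settings.

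Over all lists of the pathway, 6 of 56 tested genes that are not members were called, 5 lower and 1 higher. That is 10.7% against 14.1% of all genes, and their median log2 fold change was -0.07. By direction, 8.93% were called lower against 5.85% of all genes, and 1.79% higher against 8.29%.

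**Figure D4:**
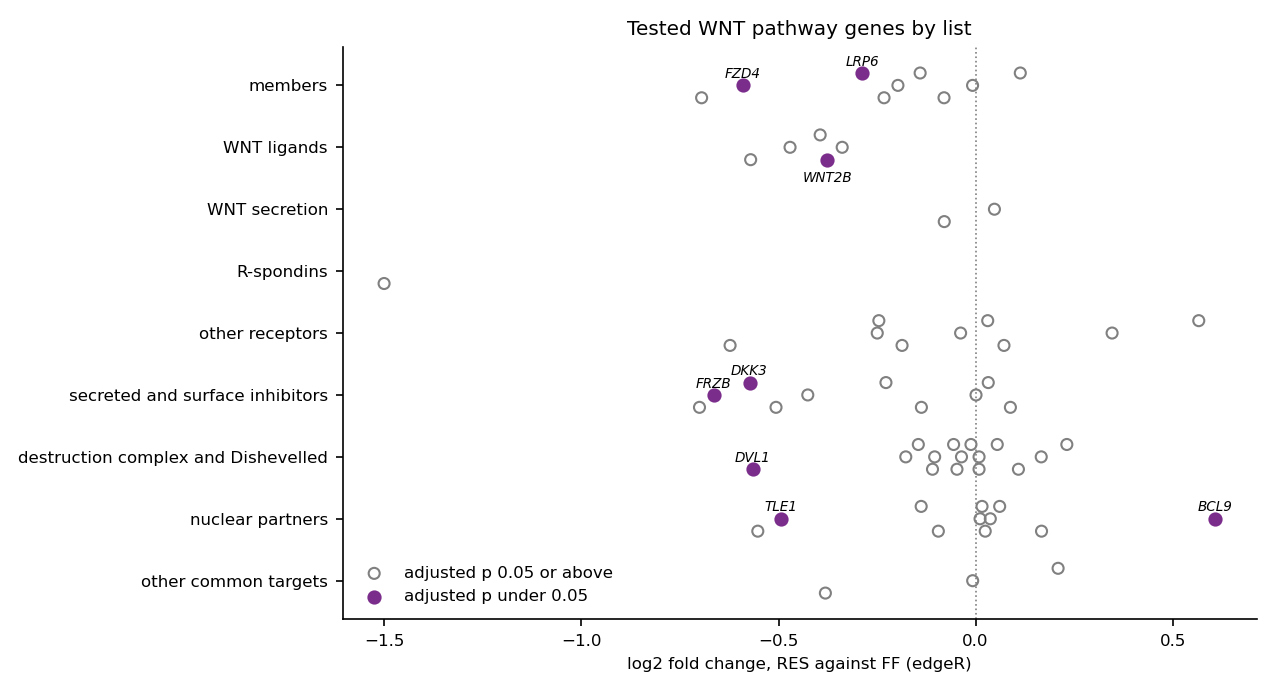
Log2 fold change of RES against FF (x axis, edgeR) for each tested gene, by list; filled points have an adjusted p under 0.05 over all 11384 genes. The 6 called genes outside the members are BCL9 on the higher side and WNT2B, FRZB, DKK3, DVL1 and TLE1 on the lower side.

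LEF1 and AXIN2 are the members used most often as a read-out of β-catenin activity. The 300-base windows around their annotated starts, 250 bases before and 50 after, are shown for that reason, beside that of FZD4, the member with the lowest adjusted p. Sequences are from RefSeq on Sscrofa11.1, 5′ to 3′ on the gene's strand, with TCF/LEF core letters in capitals (CTTTGA or CTTTGT, searched on both strands, so TCAAAG or ACAAAG where the match is on the other strand).
AXIN2, chr12:12343158-12343457, minus strand: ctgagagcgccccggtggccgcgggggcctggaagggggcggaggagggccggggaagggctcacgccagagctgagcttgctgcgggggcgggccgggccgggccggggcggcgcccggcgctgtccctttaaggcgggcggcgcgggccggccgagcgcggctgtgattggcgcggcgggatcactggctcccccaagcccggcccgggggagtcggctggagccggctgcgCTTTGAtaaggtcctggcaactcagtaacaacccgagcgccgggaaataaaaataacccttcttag
LEF1, chr8:113824261-113824560, plus strand: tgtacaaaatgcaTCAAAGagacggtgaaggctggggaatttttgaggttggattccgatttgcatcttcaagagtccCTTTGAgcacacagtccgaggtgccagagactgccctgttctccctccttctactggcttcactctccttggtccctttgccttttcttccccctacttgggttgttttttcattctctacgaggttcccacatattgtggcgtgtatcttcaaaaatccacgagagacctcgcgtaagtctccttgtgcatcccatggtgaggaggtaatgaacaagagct
FZD4, chr9:20721411-20721710, minus strand: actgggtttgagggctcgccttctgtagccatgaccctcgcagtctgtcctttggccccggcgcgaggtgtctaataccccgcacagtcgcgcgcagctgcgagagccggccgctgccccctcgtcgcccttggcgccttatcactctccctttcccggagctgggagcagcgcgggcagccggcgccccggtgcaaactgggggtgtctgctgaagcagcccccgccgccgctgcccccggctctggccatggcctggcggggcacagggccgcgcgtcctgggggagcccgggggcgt
The AXIN2 window held 1 core at position -16 from the start, and the LEF1 window held 2, at -237 and -172. FZD1 held 1 core at -240, and the windows of CTNNB1, TCF7L2, FZD4, LGR4, LGR5 and ZNRF3 held none. Of 19559 promoter windows of the same length 24.1% held at least 1 core, and a match is a description of these letters, not of binding.

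LEF1 had 8.94 to 61.2 normalized counts in FF and 20.4 to 63.9 in RES, with medians of 39.03 and 34.1, and the groups overlapped. Between the diets LEF1 differed by -0.08 ± 0.20 on the log2 scale (95% interval -0.49 to 0.33, adjusted p = 0.827, edgeR). In RefSeq its exons share 148 bases with a long non-coding RNA on the opposite strand, as do those of CTNNB1 with ULK4 over 425 bases, and counting without strand would not separate such reads.

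AXIN2 was counted 1 to 20 times per library, so that counting error alone amounts to about 39.2% of its mean, and its exons share 55 bases with CEP112 on the same strand. It ran from 3.76 to 16.5 normalized counts in FF and from 0.816 to 17.03 in RES, with medians of 6.02 and 6.06, with 6 RES libraries below every FF library and 1 above. The estimate for RES against FF was -0.23 on the log2 scale, with a wide 95% interval, from -0.91 to 0.45 (adjusted p = 0.679, edgeR). Leaving out single libraries moved it between -0.47 and -0.07. Other common targets gave no call either: of CCND1, MYC and BAMBI, the 3 of 7 that could be tested, log2 fold changes ran from -0.38 for CCND1 to 0.21 for MYC. NKD1, SP5 and NKD2, which respond to β-catenin in many tissues, were at 0 in 25, 25 and 27 of 27 libraries.

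Levels were compared per kilobase of exon by their mean over all libraries. CTNNB1 (795 ± 96.1, SD, n = 27) stood above LGR4 (684 ± 404), then came LRP6 (188 ± 38.2), TCF7L2 (63.5 ± 18.4), ZNRF3 (11.3 ± 2.84), FZD4 (5.92 ± 1.89), LEF1 (4.204 ± 1.41), AXIN2 (1.24 ± 0.741), FZD1 (1.01 ± 0.595) and LGR5 (0.197 ± 0.302). The first 2 stood in the other order in FF alone, with LGR4 at 845 ± 498 (SD, n = 13) and CTNNB1 at 785 ± 103. CTNNB1 exceeded LGR4 in 21 of 27 libraries, FZD4 exceeded LEF1 in 21 and AXIN2 exceeded FZD1 in 18. These orders did not hold in every library and were not tested. LGR4 over LRP6, LRP6 over TCF7L2, TCF7L2 over ZNRF3 and ZNRF3 over FZD4 held in all 27. The lengths are those of RefSeq exons and not of the annotation used for counting.

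The last question was whether AXIN2 and LEF1 followed the receptors from sow to sow within a diet group. AXIN2 and LEF1 were each correlated with FZD1, FZD4, LRP6, LGR4, LGR5 and ZNRF3, and with each other, on normalized counts, which made 13 pairs in each of 2 groups. None of the 26 correlations had an adjusted p under 0.05 (permutation test, two-sided, 100000 permutations), and 1 had an unadjusted p under 0.05. The strongest was LEF1 with ZNRF3 in FF (r = 0.74, rho = 0.65, permutation p = 0.00749, adjusted p = 0.195). With each FF library left out in turn r ran from 0.63 to 0.81, with an unadjusted p under 0.05 in 13 of 13 cases, but it was 0.30 without the 2 libraries farthest from the median of LEF1, so it rested on those together, and r was 0.94 among the upper and -0.07 among the lower read quality libraries. In RES the same pair had r = 0.32 (permutation p = 0.266).

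AXIN2 with FZD1 had r = 0.53 in FF (rho = 0.10, permutation p = 0.0609, adjusted p = 0.518) and r = 0.46 in RES (rho = 0.56, permutation p = 0.0996, adjusted p = 0.518). Without the 2 farthest libraries these were 0.48 and 0.11. In RES a single library moved r between 0.25 without RES sow 4 and 0.77 without RES sow 5 (permutation p = 0.00206, adjusted p = 0.0536), and within read quality groups r was 0.30 and 0.85 in FF and 0.87 and 0.17 in RES.

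LEF1 with LGR4 had r = -0.54 in FF (rho = -0.36, permutation p = 0.0582, adjusted p = 0.518), or -0.28 without the 2 farthest libraries, and -0.24 in RES. With single FF libraries left out, the FF value ran from -0.68 to -0.22, with an unadjusted permutation p under 0.05 in 3 of 13 cases. LEF1 with FZD1 had r = -0.47 in RES (rho = -0.51, permutation p = 0.087, adjusted p = 0.518) and -0.11 in FF. AXIN2 with LRP6 had r = -0.42 in RES (permutation p = 0.133) and -0.04 in FF, where r became 0.65 without FF sow 10. With single RES libraries left out, the RES value ran from -0.61 to -0.18. Among upper and lower read quality libraries r was -0.71 and 0.25 in RES, and 0.56 and -0.74 in FF. AXIN2 and LEF1 themselves had r = 0.03 in FF and 0.13 in RES. The other 14 correlations had r from -0.36 to 0.32 (lowest permutation p = 0.204). Some moved further with libraries left out. LEF1 with LGR5 had -0.67 in FF without the 2 farthest libraries (permutation p = 0.0252, adjusted p = 0.328). In RES that pair reached 0.56 with 1 library left out. AXIN2 with LGR4 in FF reached 0.52 without FF sow 10.

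The difference in r between the diets was tested for the 13 pairs by permuting the diet labels after each gene had been scaled to equal mean and spread in both groups. The lowest p was 0.21, for LEF1 with LGR5, and every adjusted p was 0.987.

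**Figure D5:**
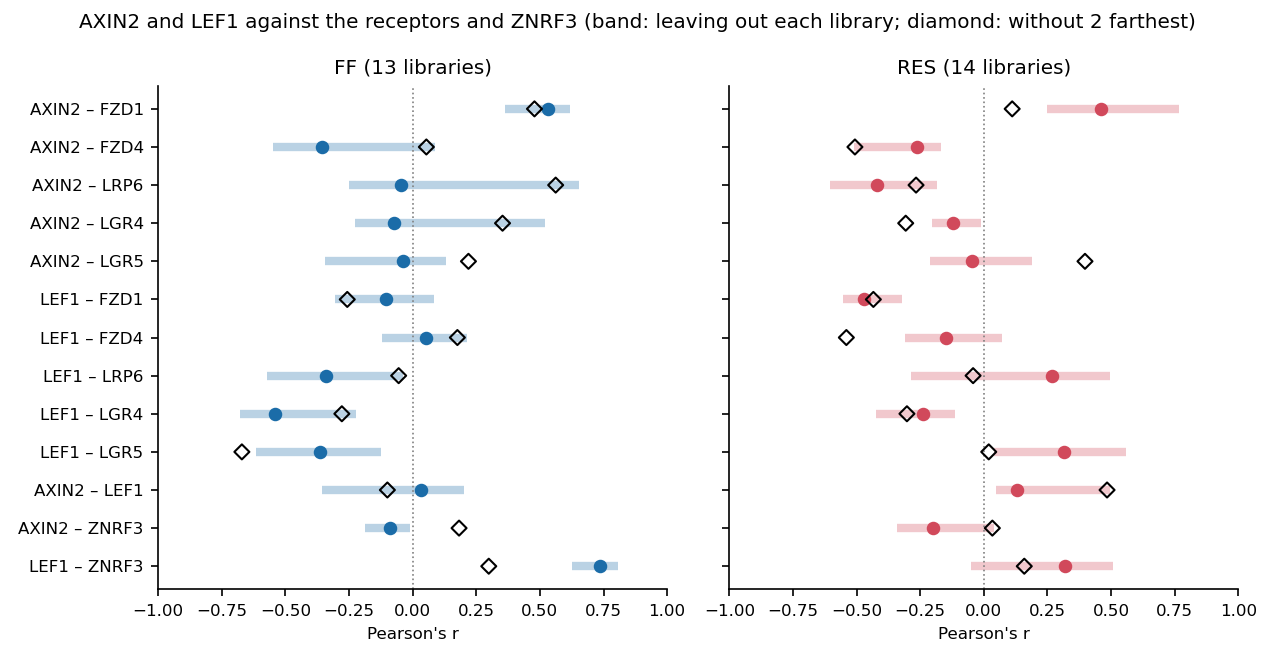
Pearson's r (x axis) of AXIN2 and LEF1 with the receptors, ZNRF3 and each other in 13 FF and 14 RES libraries; dots are all libraries of the group, bands the range when each library is left out, and open diamonds r without the 2 libraries farthest from the median. LEF1 with ZNRF3 in FF lies at 0.74 and its diamond at 0.30.

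The genes most like AXIN2 and LEF1 over the 27 libraries lay outside the pathway lists. On log2 values centred within diet group, among 7938 genes whose normalized count averaged 50 or more, those most like AXIN2 were FRAS1 (r = 0.67), ADAMTSL3 (0.63), PLCB4 (0.63), LRRC34 (0.62) and CCDC158 (0.62). For LEF1 they were POGLUT1 (0.70), SFXN1 (0.68), HINT3 (0.65), CHCHD10 (0.62) and KYAT3 (0.61). For LGR5, with most libraries at 0, they were EEIG2 (0.62), FBXL5 (0.62), VAPB (0.58), NT5C3B (0.56) and RELL1 (0.56). These are the top of many comparisons, given as a description. FZD4 and LRP6 were added after their values were seen. For FZD4 the most similar were HIPK1 (r = 0.65), ANKRD40 (0.65), TBC1D9 (0.64), RETSAT (0.64) and ARMH3 (0.64). For LRP6 they were RABGAP1 (r = 0.88), BTRC (0.86), TNKS (0.83), BMPR2 (0.81) and ATP6V0A1 (0.81). BTRC, which marks β-catenin for degradation, and TNKS, which controls the level of axin, are on the list of the destruction complex, and their log2 fold changes were -0.18 (adjusted p = 0.0898, edgeR) and -0.10.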

How the data were processed

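RNA of 27 laser-captured mural granulosa samples had been sequenced with molecular barcodes. Per the labels and methods, the authors aligned reads to Sscrofa11.1 with HISAT2 2.2.1, removed duplicates with UMI-tools 1.1.4 and deposited raw counts per Ensembl gene from featureCounts 1.6.2, 1 file per sow, with no strand option named. Symbols came from a table of pig identifiers: of 17467 identifiers that averaged 5 counts or more, 6045 without a symbol and 38 small RNAs were not tested, which left 11384 genes. Diet was tested with edgeR 4.0.16 (TMM, quasi-likelihood, Benjamini-Hochberg over all genes) under R 4.3.3. Normalized counts are counts divided by DESeq2 1.42.0 size factors, and lengths and promoter windows came from RefSeq on the same build. The main fit had no covariate. DESeq2, limma 3.58.1 voom weights, other scalings, filters, read quality, RIN and single libraries were the alternatives. Simulated data with 200 changed genes at a log2 fold change of 1 gave 84% recovered by edgeR, with 7.69% of calls on unchanged genes. The called members changed by less than that, and recovery at their size was not simulated. Named were the 10 members, the called pathway genes, for a list without a call its most abundant tested gene, and the 5 genes most like AXIN2, LEF1 and LGR5; other names were chosen after their values were seen. The members and lists were chosen with earlier results of these data known. No library pair agreed within sampling noise (351 pairs checked). Columns of per-sample values without a sample numbered 0. The promoter window of 1 member is not reported here.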

Additional observations from a re-analysis of the deposited data

How the results depend on the processing

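The member calls were 0 to 3 under the alternatives. Leaving out single libraries gave 1 to 3 called members and 2 to 9 called pathway genes, against 2 and 6. Without a count filter, or over all identifiers, 1 member was called, with LRP6 at -0.28 and -0.24. Sow numbers did not pair the libraries (correlations of same-numbered FF and RES sows from -0.22 to 0.30, 1 of 13 over 0.1) and none correlated best with its own number, so the replicate block is given only here: with it 1084 genes and 0 members were called, FZD4 had -0.57 (adjusted p = 0.0504, edgeR) and LRP6 -0.26. Within the upper read quality group 2023 genes, 2 members and 8 pathway genes were called, and FZD4 had -0.57, LGR4 -1.47, AXIN2 0.031, LEF1 0.18 and FZD1 -0.085. Within the lower group 1 gene of all, 0 members and 0 pathway genes were called (1385 genes at an unadjusted p under 0.05), with FZD4 at -0.60, LRP6 at -0.037, LGR4 at 0.17, TCF7L2 at 0.041 and CTNNB1 at 0.0066. Without FF sow 10, a setting added after seeing the data, the lower group gave 0 calls in all, FZD4 -0.68, LRP6 -0.10 and TCF7L2 0.22 (edgeR, 1325 genes at an unadjusted p under 0.05). With FF sow 10 moved into the upper group, also added after seeing the data, that group gave 1033 genes, 1 member and 1 pathway gene, with FZD4 at -0.51, LRP6 at -0.43, LGR4 at -1.31, CTNNB1 at 0.054, LEF1 at 0.094 and FZD1 at -0.22. Voom with sample quality weights called 3193 genes and 13 pathway genes, against 1610 and 6, and had LGR4 at -0.70 and CTNNB1 at 0.013. LGR4 also passed with DESeq2 at -0.70. RSPO2 passed in 4 settings, FZD5 in 4 and TLE4 in 11. CTNNB1 was 0.0059 without a count filter and 0.036 over all identifiers. With single libraries left out, log2 fold changes ran from -0.32 to -0.21 for LRP6, -0.79 to -0.54 for LGR4, -0.043 to 0.014 for CTNNB1 and -0.018 to 0.28 for FZD1. The cause of these shifts was not tested. No setting brought a correlation under an adjusted p of 0.05. In FF, AXIN2 with LRP6 had a Spearman rho of 0.27 and r = 0.56 without the 2 farthest libraries (-0.25 to 0.65 leaving out single libraries). AXIN2 with LEF1 in FF had -0.11 on the log2 scale and -0.10 without the 2 farthest (-0.36 to 0.20), AXIN2 with FZD1 in RES ran from 0.25 to 0.77, LEF1 with FZD1 in FF ran from -0.30 to 0.084, and LEF1 with ZNRF3 in RES from -0.050 to 0.51. At a mean of 6.52 counts for AXIN2, 9.89 for FZD1 and 0.778 for LGR5, small differences and correlations could not be seen at this depth.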
